A study of Gallus gallus with 8 samples.

Results

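A total of 144 of the 17108 measured genes fell stepwise when chicken neural crest cells were given more of the protein DAN: every library at 1 µg/ml lay below both untreated libraries, and every library at 10 µg/ml lay below every library at 1 µg/ml. The genes were chosen on RPKM, the reads of a gene scaled to its length and to the depth of the library. The mean RPKM had to be at least 1 without DAN and at least 0.3 at 10 µg/ml, and had to fall at least 1.25-fold at each step and at least 3-fold in all. The rule used the measured values of all libraries and all doses, so the falls that follow describe the chosen genes and are no test of a response to DAN.

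The cells were migratory cranial neural crest of leghorn chicken embryos. Neural tube pieces from rhombomeres 3 to 5 were taken at Hamburger and Hamilton stage 8 and grown overnight on fibronectin and poly-D-lysine in medium with recombinant DAN at 0, 1 or 10 µg/ml. The tube and any ectoderm were then lifted off, and 200 to 1000 adherent cells per sample were lysed, per the labels. Replicates 2 and 3 of the untreated cells and replicates 1, 2 and 3 of each DAN dose gave 8 libraries, with 44338765 to 199084828 counts each. The labels call the replicates biological and do not say how many embryos went into 1 sample. The files give Ensembl gene IDs without symbols, and 0 of the 17108 IDs matched the reference table used here, so the genes' functions are not described, 2 genes are named by ID, and the crest identity of the cells was not checked against markers.

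DAN, the product of the gene NBL1, is a secreted protein that binds bone morphogenetic proteins outside the cell and keeps them from their receptors. Bone morphogenetic proteins act through receptor kinases that activate SMAD transcription factors, and in the early embryo they take part in inducing the neural crest and in its departure from the dorsal neural tube. Neural crest cells migrate away from the tube and form, in the head, cartilage, bone, peripheral neurons and glia. By the title of the study, the question was how DAN restrains crest invasion and keeps migration collective.

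The 144 genes kept a median of 44.1% of their untreated mean RPKM at 1 µg/ml and 24.1% at 10 µg/ml. By library, the median gene stood at 112% of its own untreated mean in untreated replicate 2 and at 88.5% in untreated replicate 3. At 1 µg/ml it stood at 45.1%, 47.8% and 37.3% in replicates 1, 2 and 3. At 10 µg/ml it stood at 20.4%, 27.0% and 24.1%. For each single gene the 3 doses did not overlap, as the rule required. Across different genes the doses did overlap, since some genes at 1 µg/ml had fallen as far as others at 10 µg/ml. Together the genes took 0.55% and 0.387% of all counts in the untreated libraries. Their share was 0.178% to 0.223% with 1 µg/ml of DAN and 0.087% to 0.123% with 10 µg/ml. In samples of many cells lysed together, fewer cells that carry these messages and less message per cell cannot be told apart.

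**Figure D1:**
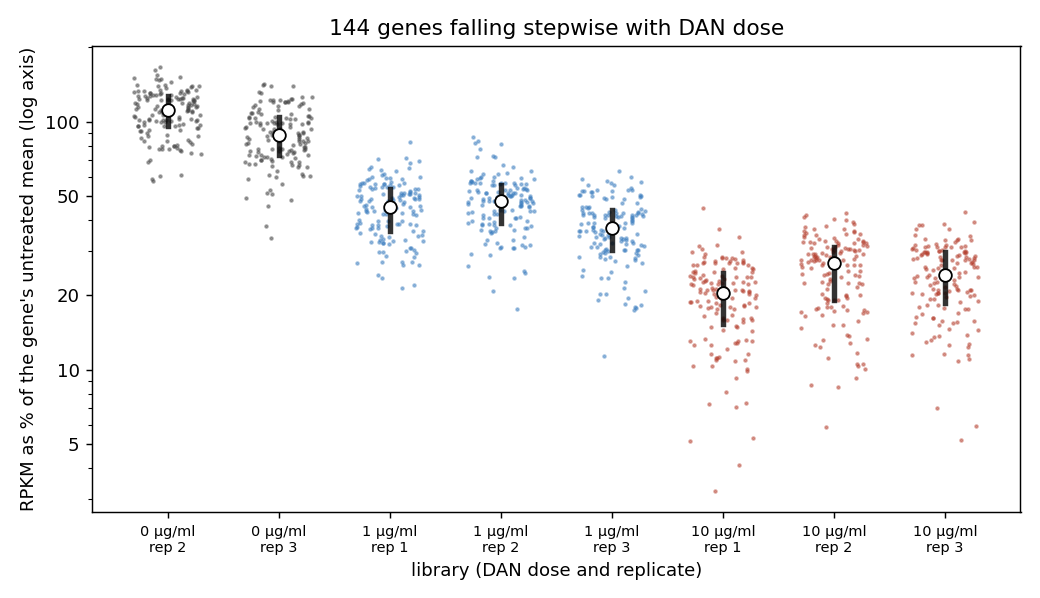
RPKM of each of the 144 genes as a percent of its own untreated mean (log axis) in the 8 libraries. Each small point is 1 gene, the open circle is the median and the bar spans the quartiles; 1 gene listed at 0 in replicate 1 at 10 µg/ml is counted in the median but not drawn. The medians run from 112% and 88.5% without DAN over 37.3% to 47.8% in the low-dose libraries to between 20.4% and 27.0% in the high-dose ones.

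The most abundant of the genes was ENSGALG00000028880, 813 bases long. It was at 683 and 504 RPKM in the untreated libraries, at 308, 301 and 314 RPKM at 1 µg/ml, and at 159, 166 and 257 RPKM at 10 µg/ml. The libraries at 1 µg/ml lay close together, and replicate 3 at 10 µg/ml lay nearer to them than the other 2 did. The dose means were 593 ± 126 (SD, n = 2), 308 ± 6.72 (SD, n = 3) and 194 ± 54.9 RPKM (SD, n = 3), a fall of 1.93-fold to 1 µg/ml and of 3.06-fold in all. That fall is barely over the 3-fold limit of the rule, so this gene is a member by a small margin. Between 5831 and 52550 counts stood behind each of its values.

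The largest fall belonged to ENSGALG00000007053, 1089 bases long, which dropped 18.6-fold. Its level was 12.1 and 2.47 RPKM without DAN, 1.70, 1.51 and 0.827 RPKM at 1 µg/ml, and 0.235, 0.425 and 0.511 RPKM at 10 µg/ml. The untreated libraries differed 4.89-fold in this gene, the widest split of the untreated pair among the 144 genes, so the size of the fall rests on untreated replicate 2. As a log2 fold change at 10 µg/ml against untreated it was -4.24 with both untreated libraries, -2.69 without replicate 2 and -4.97 without replicate 3 (edgeR). The 3 libraries at 10 µg/ml held 28, 20 and 41 counts.

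Abundance varied over a wide range, and the median fall differed little between its classes. The untreated mean ran from 1.58 to 593 RPKM with a median of 7.27. For the 58 genes under 5 RPKM the median fall from 0 to 10 µg/ml was 4.26-fold. It was 4.35-fold for the 26 genes from 5 to 10 RPKM, 4.14-fold for the 52 genes from 10 to 100 RPKM, and 3.63-fold for the 8 genes at 100 RPKM or more. Spearman's rho between the untreated mean and the fall was -0.04 over the 144 genes, which share all 8 libraries. The rule cut on both of these values, and its limit at 10 µg/ml caps the fall of genes at a low level, so nothing is read from this. The second most abundant gene was at 378 and 522 RPKM without DAN, 307, 267 and 186 RPKM at 1 µg/ml, and 93.8, 136 and 129 RPKM at 10 µg/ml. Unlike in ENSGALG00000028880, the higher untreated library was replicate 3, and the second step, 2.12-fold, was larger than the first, 1.78-fold.

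Most of the falls were moderate. The whole fall had a median of 4.15-fold, with quartiles of 3.48 and 5.57. There were 61 genes with a fall under 4-fold, 37 from 4-fold to under 5-fold, 33 from 5-fold to under 8-fold, and 13 of 8-fold or more. The 13 with the deepest falls had a median of 5.49 RPKM without DAN, 1.75 RPKM at 1 µg/ml and 0.415 RPKM at 10 µg/ml. Among them was the shortest gene, of 80 bases, which was at 5.63 and 5.36 RPKM without DAN, 2.33, 1.38 and 1.54 RPKM at 1 µg/ml, and 0, 0.578 and 0.679 RPKM at 10 µg/ml. Only 0, 2 and 4 counts stood behind its 3 values at 10 µg/ml, so the depth of its fall is not well measured. In all, 3 genes had under 10 counts in some library and 30 had under 30.

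The first step, from 0 to 1 µg/ml, was usually the larger. Mean RPKM fell a median of 2.27-fold at the first step and 1.86-fold at the second. On the log2 scale, a median of 57.8% of the whole fall was reached at 1 µg/ml, and 106 of 144 genes (73.6%) had passed the middle of their fall there. When the fall is cut into 3 equal parts on that scale, 19 genes had over 2 of the 3 parts behind them at 1 µg/ml, 124 lay in the middle part, and 1 had not finished the first part. The 2 step limits of the rule keep genes with very uneven steps out of the set, so this narrow range is partly fixed by the choice.

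The most uneven genes show what the 2 ends look like. The gene with the largest share at the low dose (83.9%) was at 38.2 and 8.94 RPKM without DAN, 5.68, 5.58 and 4.78 RPKM at 1 µg/ml, and 3.49, 4.74 and 3.82 RPKM at 10 µg/ml. Its untreated libraries were 4.27-fold apart, and its 2 DAN doses nearly touched. The gene with the smallest share (32.7%) was at 5.00 and 4.16 RPKM without DAN, 2.81, 3.30 and 2.64 RPKM at 1 µg/ml, and 1.02, 1.12 and 1.30 RPKM at 10 µg/ml. Its groups were tight. Its lowest untreated value exceeded its highest value at 1 µg/ml by only 1.26-fold. Its lowest value at 1 µg/ml exceeded its highest at 10 µg/ml by 2.03-fold. The median share at 1 µg/ml was 53.1% for the genes chosen without untreated replicate 2 and 62.2% for those chosen without untreated replicate 3.

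**Figure D2:**
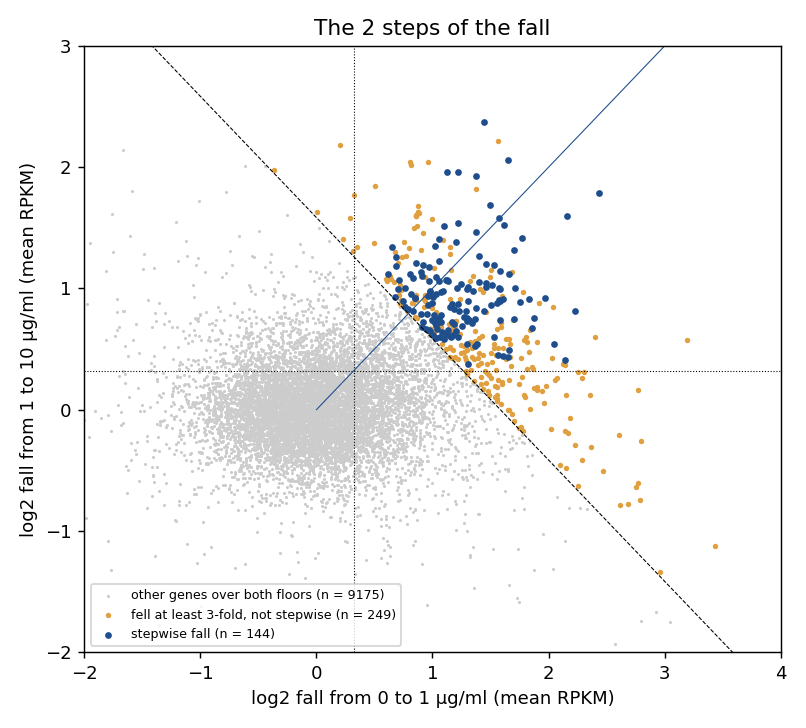
Fall from 0 to 1 µg/ml against fall from 1 to 10 µg/ml, both as log2 of the ratio of mean RPKM, for the genes over both level limits. Blue points are the 144 genes that fell stepwise, orange points the 249 that fell at least 3-fold but failed another condition, and grey points the rest. Dotted lines mark the 1.25-fold step limits, the dashed line the 3-fold limit and the solid line equal steps; 106 of the 144 lie to the right of it, and 30 genes, none of the 144 (0 genes), lie outside the axes.

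The rule can be followed condition by condition. Of 17108 genes, 9568 passed both level limits, and 393 of these fell at least 3-fold from 0 to 10 µg/ml. The step limits left 314, the gap between untreated and 1 µg/ml left 226, and the gap between 1 and 10 µg/ml left 144. Among the 9568 genes, all libraries at 1 µg/ml lay below both untreated ones in 20%, all libraries at 10 µg/ml lay below all at 1 µg/ml in 16.9%, and both held in 5.12%; in the 144 both are fixed by the rule. Many genes missed only a single condition, and how many of them lay close to it was not counted. The smallest whole fall inside was 3.01-fold and the largest among the 214 genes that missed only this limit was 2.995-fold. The lowest mean at 10 µg/ml inside was 0.311 RPKM, and the highest among the 27 genes that missed only this limit was 0.287 RPKM. For the first step the smallest value inside was 1.53-fold, and the 1 gene that missed only this limit had 1.24-fold. For the second step it was 1.30-fold inside, against 1.20-fold in the 1 gene outside. No gene missed only the limit on the untreated mean (0 genes), which was 1.58 RPKM or more in the 144. Another 33 genes missed only the first gap and 82 only the second.

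The gap between libraries was narrower at the second step. The lowest untreated value exceeded the highest value at 1 µg/ml by a median of 1.55-fold, and the lowest value at 1 µg/ml exceeded the highest at 10 µg/ml by a median of 1.28-fold. Fewer untreated libraries than libraries at 1 µg/ml enter the lowest value, which tends to narrow the second gap. The second step was also the smaller, at a median of 1.86-fold against 2.27-fold. The part of each in the narrower gap was not tested. The first gap was 1.25-fold or more in 120 genes, the second in 81, and both in 69. These counts describe genes already chosen to have both gaps and were not set against all genes. The narrowest second gap was 1.001-fold: that gene was at 2.47, 2.37 and 1.46 RPKM at 1 µg/ml and at 1.46, 1.42 and 0.910 RPKM at 10 µg/ml. For such a gene the separation of the doses is smaller than the spread within either dose.

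To read values that the choice had not used, the rule was applied with 1 library left out at a time. The left-out library was then placed against the others, which the choice had used. A left-out untreated library is in its place when it lies above all libraries at 1 µg/ml, a left-out library at 1 µg/ml when it lies between the other 2 doses, and a left-out library at 10 µg/ml when it lies below all at 1 µg/ml. Without untreated replicate 2 the rule chose 156 genes, and that library was in its place in 121 of them (77.6%), against 36.1% of all genes over both level limits. For untreated replicate 3 it was 167 of 234 (71.4%), against 36.5%.

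The dosed libraries were read in the same way. At 1 µg/ml, replicate 1 lay between the other doses in 145 of 158 genes (91.8%, against 11.4% of all genes over the limits), replicate 2 in 142 of 164 (86.6%, against 10.6%) and replicate 3 in 143 of 194 (73.7%, against 9.18%). At 10 µg/ml, replicate 1 lay below all libraries at 1 µg/ml in 125 of 130 genes (96.2%, against 36%), replicate 2 in 158 of 211 (74.9%, against 31.8%) and replicate 3 in 152 of 182 (83.5%, against 32.5%). For the libraries at 1 µg/ml this contrast with all genes was largely fixed by the choice, since the place lies between doses that the rule set at least 3-fold apart, and most genes have no such gap. For the untreated libraries and those at 10 µg/ml the contrast was partly fixed too. The rule had already set the libraries at 1 µg/ml below the remaining untreated and above the remaining 10 µg/ml ones. All genes over the limits carry no such choice. Genes share libraries and are not independent, so no p is attached to these shares.

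**Figure D3:**
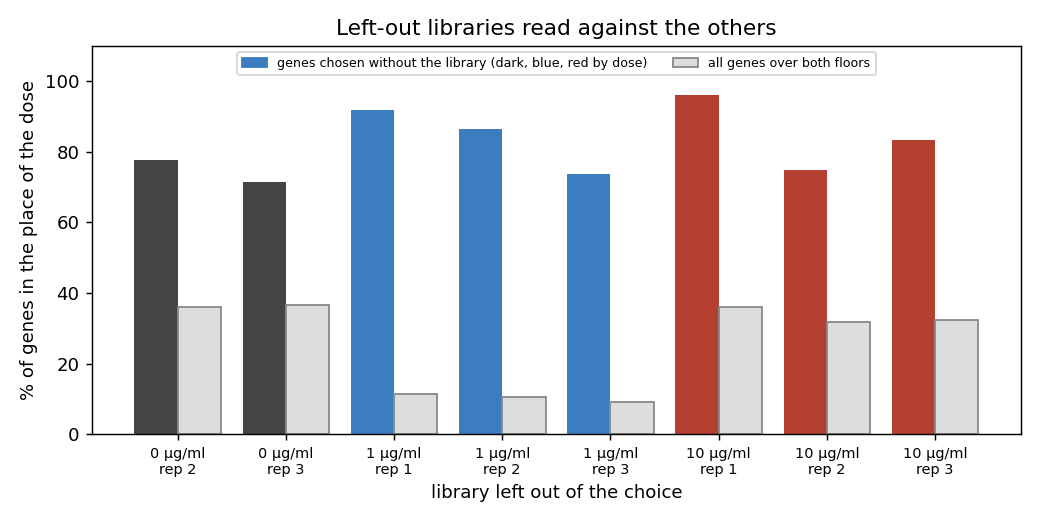
Percent of genes for which a library left out of the choice lay in the place of its dose. Coloured bars are the genes chosen from the other libraries (130 to 234 genes), grey bars all genes over both level limits in those libraries. The coloured bars run from 71.4% to 96.2% and the grey ones from 9.18% to 36.5%. The choice used the other libraries, so part of this contrast is built in.

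A left-out library at 1 µg/ml could miss its place on either side. Replicate 3 was mostly too low: in 49 of its 194 genes it lay at or below the highest library at 10 µg/ml, and in 2 it reached the untreated ones. Replicate 1 was at or below 10 µg/ml in 11 of 158 genes and reached the untreated ones in 2. Replicate 2 missed on both sides: it was at or above the lowest untreated library in 14 of 164 genes and at or below 10 µg/ml in 8. The 234 genes chosen without untreated replicate 3 stood in that library at a median of 58.1% of untreated replicate 2. The 156 genes chosen without untreated replicate 2 stood in that one at a median of 87.9% of untreated replicate 3. With plain library totals these medians were 47.6% and 108%, so the side of untreated replicate 3 on which replicate 2 stood turned with the scaling. Each choice used only the other untreated library and favours genes high there, so a lower left-out library is partly built in.

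The 144 genes also moved together within a dose, where the rule fixes no order. Replicate 1 was the lowest of the 3 libraries at 10 µg/ml for 110 of the 144 genes (76.4%), against 32.8% of all genes over the level limits. Replicate 3 was the lowest at 1 µg/ml for 100 of the genes (69.4%), against 32.0%. Of the untreated libraries, replicate 2 was the higher for 98 of the genes (68.1%), against 45.1%. On the log2 scale the median gene lay 0.24 below the mean of its dose in replicate 1 at 10 µg/ml and 0.22 below it in replicate 3 at 1 µg/ml, while the median over all genes over the limits was within 0.04 of 0 in each of the 8 libraries. With plain library totals the shares were 80.6%, 73.6% and 81.9%, against 41.9%, 41.7% and 65.3% of all genes over the limits, so untreated replicate 2 was then the higher in most of all genes too. With DESeq2 size factors they were 76.4%, 67.4% and 70.1%, against 34.0%, 29.6% and 46.9%. The 144 genes were at a lower level than all genes over the limits, and libraries differed with level. In the lowest decile of mean RPKM, replicate 1 at 10 µg/ml deviated by -0.22 (log2) from the mean of the 8 libraries. Replicates 2 and 3 deviated by -0.16 and -0.13. Replicate 3 at 1 µg/ml deviated by -0.15, replicates 1 and 2 by -0.01 and -0.04. The part of level in the shared order was not tested.

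At the DAN doses this order was also seen in genes chosen without the library in question, and in genes outside the set. Among the 130 genes chosen without replicate 1 at 10 µg/ml, that library was below both others of its dose in 69.2%. Among the 194 chosen without replicate 3 at 1 µg/ml, that one was below both others in 76.8%. Of all genes over the limits the shares were 32.9% and 32.0%. The 249 genes that fell at least 3-fold but not stepwise had the same 2 libraries lowest in 50.6% and 56.2%, against 32.8% and 32.0%. For the untreated pair the result was mixed. In the 156 genes chosen without untreated replicate 2, that library was the lower in 59.0%, against 57.9% of all genes. In the 234 chosen without untreated replicate 3, that one was the lower in 87.2%, against 47.6%. With plain library totals the shares were 46.3% (against 37.4%) and 93.3% (against 67.9%). Each of these choices used only the other untreated library, which favours genes that are high there. A lower left-out untreated library is therefore partly built in. The shares of all genes carry only the level limits, which were also taken without the left-out library. The 37 genes that rose stepwise under the mirrored rule had replicate 1 at 10 µg/ml highest in 26 cases (70.3%, against 35.0% of all genes over the limits) and untreated replicate 2 lower than replicate 3 in 31 (83.8%, against 54.9%). At 1 µg/ml replicates 1, 2 and 3 were highest in 12, 13 and 12 of the 37 genes. They were lowest in 4, 20 and 13 (10.8%, 54.1% and 35.1%, against 37.8%, 30.2% and 32.0% of all genes over the limits). With plain library totals replicate 1 at 1 µg/ml was highest in 20 of 37 (54.1%, against 40.7%). Under the same totals the 31 genes with untreated replicate 2 lower became 22 of 37 (59.5%, against 34.7%). The shares of all genes given here are over the level limits of the falling rule. The 37 genes passed those limits with the doses swapped, and their untreated mean had a median of 0.976 RPKM. Many of them therefore lie outside that background. Replicates are separate samples with no order of their own, and the labels give no batch or date. The cause of this shared order was not tested.

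**Figure D4:**
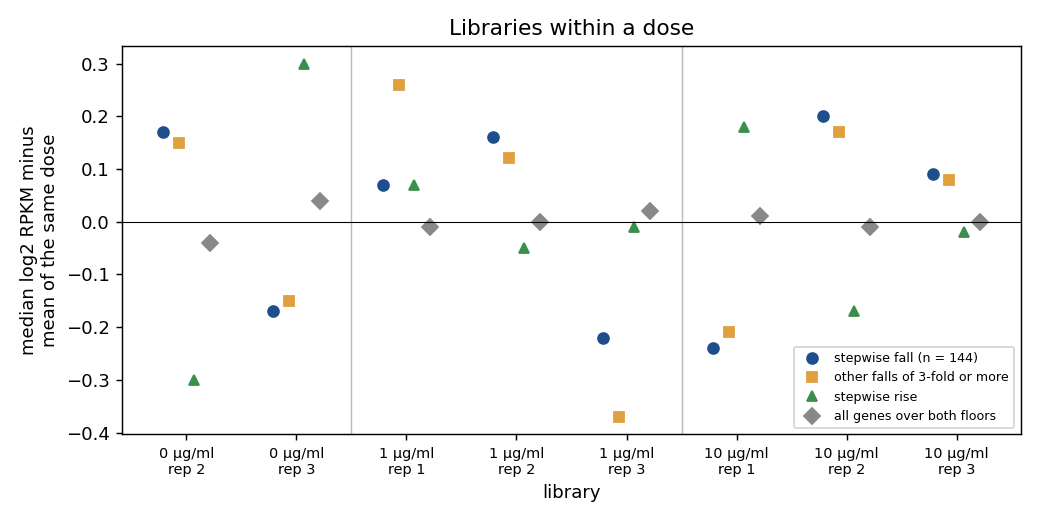
Median over genes of log2 RPKM minus the mean of the same dose, for each library. Blue circles are the 144 genes that fell stepwise, orange squares the 249 other genes that fell at least 3-fold, green triangles the 37 that rose stepwise and grey diamonds all genes over both level limits. The circles lie lowest at 10 µg/ml in replicate 1 (-0.24) and at 1 µg/ml in replicate 3 (-0.22).

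The spread between replicates of these genes was larger than usual. The coefficient of variation within a dose had a median of 28.0% without DAN, 18.6% at 1 µg/ml and 21.0% at 10 µg/ml in the 144 genes, against 24.2%, 11.8% and 12.2% over all genes over the level limits. The set was at a lower level than those genes, with a median of 3.58 against 9.67 RPKM over all libraries. Low levels carry more counting error, and the part of this in the spread was not tested. The untreated pair was at least 2-fold apart in 23 of the 144 genes (16.0%), against 18.5% of all genes over the limits. In 19 of these 23 genes it was untreated replicate 2 that was the higher, as in 98 of the whole 144. The same share over all genes this far apart was not taken, so nothing is read from it.

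The genes were shorter than most. Gene length, taken from the ratio of counts to RPKM, had a median of 1353 bases and quartiles of 853 and 1959 bases, against 1974, 1131 and 3289 bases over the 9568 genes over the level limits. By deciles of length, the share of genes that fell stepwise was 1.46% in the shortest decile, 3.55% in the second, 1.78% to 2.30% in the next 4 deciles, and 0.209% to 0.731% in the 4 longest deciles. The other genes that fell at least 3-fold were short as well, with a median of 1401 bases, and the genes that rose stepwise had a median of 2410 bases. Length is not a measure that chose the genes, but the libraries differed with length. In the shortest decile of genes, untreated replicate 3 deviated by a median of 0.33 (log2) from the mean of the 8 libraries, and in the longest by -0.20. Untreated replicate 2 ran the other way, with -0.20 in the shortest and 0.17 in the longest decile. In the 6 libraries with DAN the medians of these 2 deciles ran from -0.06 to 0.04.

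When each library's trend with length was removed, a step chosen after seeing the data, the rule gave 143 genes with a median of 1412 bases, of which 130 were among the 144. The 48 genes under 1000 bases and the 96 longer ones fell by a median of 4.58-fold and 4.06-fold. The untreated pair differed by length: the median ratio of replicate 2 to replicate 3 was 1.03 in the 48 short genes and 1.41 in the 96 longer ones, against 0.734 and 1.01 in all genes over the limits of these lengths. In both classes the genes were thus higher in untreated replicate 2, relative to genes of their length. Only 4 of the 144 were under 200 bases. RPKM of such short genes depends on few reads, as in the gene of 80 bases.

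**Figure D5:**
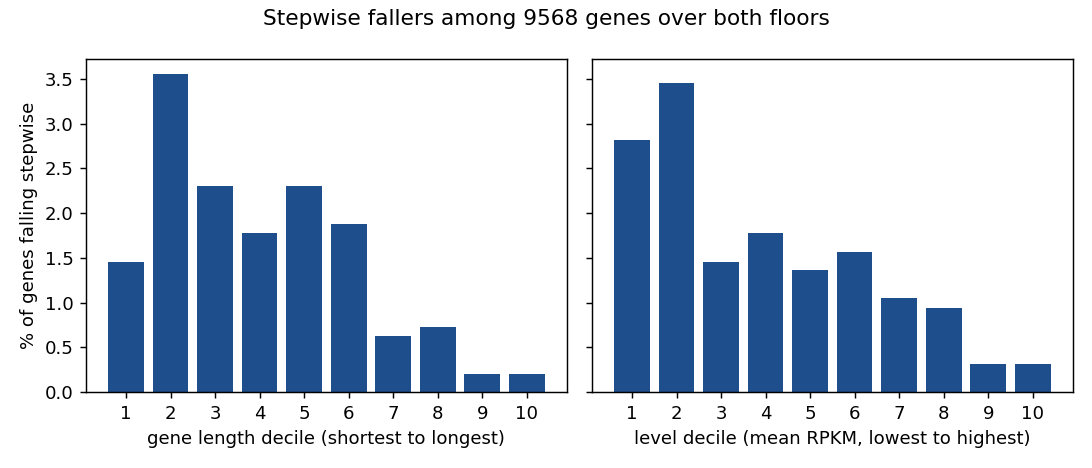
Percent of genes that fell stepwise, by deciles of gene length and of mean RPKM over the 8 libraries, among the 9568 genes over both level limits. By length the share runs from 3.55% in the second decile to 0.209% in the last 2, and by level from 3.45% in the second decile to 0.313% in the last 2.

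By level, 2.82% of the lowest decile and 3.45% of the second decile fell stepwise, against 0.313% in each of the 2 highest deciles. The level was averaged over the same 8 libraries, so a fall lowers it and part of this link is built in. In the lowest decile the untreated libraries deviated by a median of 0.55 and 0.26 (log2) and those at 10 µg/ml by -0.22 to -0.13, and the limit of 1 RPKM on the untreated mean favours this order. With each library's trend with level removed, also chosen after seeing the data, 121 genes passed the rule, of which 108 were among the 144.

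Falls met the stepwise rule more often than rises. The mirrored rule, with the doses in reverse, chose 37 genes, with a median rise of 3.79-fold and a median of 64.7% of the rise reached at 1 µg/ml on the log2 scale. Of the 9568 genes over the level limits 393 fell at least 3-fold, and of the 9343 genes over the same limits with the doses swapped 172 rose at least 3-fold; 36.6% of those that fell and 21.5% of those that rose did so stepwise. The excess of falls held in each of the 17 other settings of the rule, from 121 to 314 falls against 22 to 112 rises. As a ratio it was smallest without replicate 2 at 10 µg/ml, at 211 falls against 79 rises. These settings share the same libraries, and the excess is one of this rule. By edgeR over the whole table, at an adjusted p under 0.05, 1286 genes were lower and 1018 higher at 10 µg/ml than untreated. At 1 µg/ml 183 were lower and 213 higher. The 249 remaining genes with a fall of 3-fold or more had made a median of 70.7% of it at 1 µg/ml on the log2 scale. Of these genes, 28 were higher at 10 than at 1 µg/ml. Among these 249, 209 failed the second gap and 103 the first. Leaving out untreated replicate 3 raised the stepwise falls from 144 to 234, and the stepwise rises became 85 without it and 79 without replicate 2 at 10 µg/ml.

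Counts were also fitted over the whole table with edgeR's quasi-likelihood test and Benjamini-Hochberg adjustment. All of the 144 genes passed the filter on low counts. Their log2 fold changes had a median of -2.06 at 10 µg/ml against untreated (range -4.24 to -1.60), -1.19 at 1 µg/ml against untreated (-2.43 to -0.63) and -0.90 at 10 against 1 µg/ml (-2.43 to -0.38). The medians of all 14085 genes tested were -0.02, -0.03 and -0.02. With plain library totals the median of all genes was -0.13 at 10 µg/ml and that of the 144 was -2.20. The rule used these falls, so the distance between the medians was set by the choice.

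At an adjusted p under 0.05, 144 of the 144 genes were lower at 10 µg/ml than untreated, where 9.13% of all genes tested were. At 1 µg/ml 34 of them were, where 1.3% of all genes were. At 10 against 1 µg/ml none was called (0 genes), where 0% of all genes were; before adjustment 123 of the 144 were lower at a p under 0.05, where 6.52% of all genes were. DESeq2 called 124 of the 144 lower at 1 µg/ml, among 1078 of all 14085 genes tested. At 10 against 1 µg/ml it called 50 of the 144, among 154 of all genes. In that contrast limma on log2 RPKM and voom with quality weights called 0. At 1 µg/ml limma called 73 of the 144 with log2(RPKM + 1), among 396 of all genes. With log2(RPKM + 0.1) it called 31, among 195, and voom called 0. The rule used all 3 contrasts, and the contrasts of both doses share their untreated libraries, so nothing is read from these counts about the set. The 34 calls at 1 µg/ml, among 183 of all genes, became 2 among 3 without replicate 2 at 10 µg/ml. They became 0 without any 1 of replicates 1, 2 and 3 at 1 µg/ml or of replicates 1 and 3 at 10 µg/ml. In those fits no gene at all was called lower at 1 µg/ml. The 144 calls at 10 µg/ml, among 1286 of all genes, became 134 among 588 with only the groups compared. They became 137 among 654 with a replicate block. With single dosed libraries left out they ran from 116 to 143, among 309 to 1015 of all genes. With voom and quality weights they became 98 among 214, and ENSGALG00000028880 was no longer called.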

How the data were processed

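Poly(A) RNA of 8 libraries was amplified with the SMART-seq v4 kit for low input and prepared with Nextera XT, per the labels' protocols; the protocols mention neither molecular identifiers nor strand. The authors deposited whole-number counts per Ensembl gene, not normalized, and RPKM values of the same genes. The submitters' processing notes list galGal4 as the build and bedtools, edgeR 3.12.0, FastQC 0.10.1 and TopHat2 2.0.13 as tools, without saying which step each served. How reads with several matches were counted is not given in these sources, so genes with near-identical copies or an overlapping partner are uncertain. Count divided by RPKM scaled between libraries as TMM totals do (within 0.000439% in the median of 5133 genes over 5 RPKM), which gave gene lengths.

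The rule was applied to the deposited RPKM. For counts, edgeR 4.0.16 (R 4.3.3) was used with TMM, filterByExpr, all groups in 1 fit, no replicate block and 2-sided tests. DESeq2 1.42.0 and limma 3.58.1 were alternatives. Scripts were tested on simulated data. The genes, lists and tests were chosen with earlier results of these data known. The rule for named genes gave the member with the highest untreated RPKM and the one with the largest fall; other single genes were chosen after their values were seen. The planned gene lists and markers were not used, since no ID had a symbol. The untreated libraries are replicates 2 and 3; an untreated replicate 1 was not analysed here. Pairs of libraries within a dose differed beyond sampling noise, with chi-square values of 71.9 to 360 for each degree of freedom, and each was counted as 1 sample. Reads are PCR copies without identifiers, so low counts carry counting error and more.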

Additional observations from a re-analysis of the deposited data

How the results depend on the processing

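No median log2 fold change of the 144 turned its sign, which the order of doses in the rule largely fixed in advance. Leaving out 1 library at a time gave 130 to 234 stepwise falls, 39 to 85 stepwise rises, a median share at 1 µg/ml of 53.1% to 62.2% and a median length of 1198 to 1722 bases. Without the condition on overlap there were 314 falls and 112 rises, and with plain library totals 22 rises and a median length of 1510 bases. With plain totals untreated replicate 3, left out, was in its place in 56.2% of the 402 genes chosen, against 25.8% of all genes over the limits. With the deposited RPKM it was in its place in 71.4% of 234, against 36.5%. Untreated replicate 2, left out, stood at a median of 108% of replicate 3 with plain totals, in place of 87.9%. With limma on log2(RPKM + 1), whose pseudocount shrinks low genes, the median log2 fold changes of the 144 were -1.59, -0.94 and -0.60 at 10 µg/ml, at 1 µg/ml and between the doses. With single libraries left out of the edgeR fit, the edgeR median at 1 µg/ml ran from -1.38 to -1.0005.

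Genes called lower at 10 µg/ml (1286) were 1957 with DESeq2, 588 with only the groups compared, 214 with voom quality weights and 309 to 2329 with single libraries left out (2329 without untreated replicate 3; 309, 850 and 559 without replicates 1, 2 and 3 at 10 µg/ml). At 1 µg/ml (183, of which 34 of the 144) they were 1078 and 124 with DESeq2, 396 and 73 with limma on log2(RPKM + 1), 0 and 0 with only the groups compared and with quality weights, and 0 to 1523 and 0 to 94 with single libraries left out (513 and 1523 genes without untreated replicates 2 and 3, and at most 3 without any dosed library). Between the doses (0) they were 154 and 50 with DESeq2, and 0 to 1 genes with single libraries left out. The cause was not tested. The labels do not say what a replicate number marks, so the main fit used no replicate block. Deviations of same-numbered libraries correlated at r of -0.03 to 0.20, over 0.1 in 2 of 7 pairs. In the 14 other pairs r was -0.15 to 0.06, and 6 of 8 libraries correlated best with their own number. Whether replicate numbers mark pairs was not tested further. With a replicate block 654 genes were lower at 10 µg/ml. At 1 µg/ml 1 gene was, and 0 of the 144. With 1 untreated library left, its spread is assumed to equal that of the dosed ones. Only 2 untreated libraries set every fall, and counts under 30 limit 30 genes.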
